A study of Mus musculus with 15 samples.

Results

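The change in polysome loading after CD95L-T4 was measured in neural stem cells of female mice of the strain given as C57/B16, aged 6 weeks and grown as neurospheres, which are free-floating clusters of stem and progenitor cells. CD95L-T4 is a trimerised form of the CD95 ligand, and RNA was taken 48 h after it was added. All 15 arrays of the series entered. Of the untreated cultures 4 arrays held total RNA and 4 polysomal RNA, and of the cultures with CD95L-T4 4 held total and 3 polysomal RNA. These groups were read from the titles, because the treatment label of treated samples gives the cell type alone, and the controls carry no named agent. The titles call the replicates biological without saying whether cultures or animals were separate. If they were not, the p-values measure only the spread between these samples.

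An mRNA under translation carries several ribosomes and sediments with the polysomes, so its polysomal level set against its total level is a common measure of how heavily it is loaded. Loading of many mRNAs is set by initiation, which depends on the cap-binding factor eIF4E and on the kinase mTOR, and mRNAs that begin with a terminal oligopyrimidine (TOP) tract, among them those of ribosomal proteins, follow mTOR most closely. CD95 (Fas) is known as a death receptor, and in neural stem cells it has also been linked to PI3K and mTOR signalling.

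The quantity described here is the interaction, in log2: the polysomal minus total difference in CD95L-T4 cultures, minus the same difference in control cultures. A value above 0 means relatively more polysomal RNA after CD95L-T4. It was computed for 22626 probe sets, of which 20380 named 1 gene, and each of the 12393 genes was represented by its brightest probe set. For single arrays, loading means the value of a polysomal array minus the mean of the total arrays of the same treatment. Levels are log2 array values, and percentiles rank a probe set's mean among all that were tested.

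The 2 fractions were purified differently, total RNA on columns and polysomal RNA by phenol and chloroform extraction. Their molecule labels, total RNA and polyA RNA, differ as well. Fraction, extraction and molecule therefore cannot be told apart, but they are shared by the treated and the control arrays of a fraction. Array medians lay between 6.83 and 6.98. The separation of a polysomal array from total RNA, its position along the mean polysomal minus total difference of both treatments over all probe sets, where total RNA averages 0 and polysomal RNA 1, was 0.99 to 1.07 in the controls and 0.91, 1.04 and 0.97 in CD95L-T4 replicates 1 to 3. Poly-A control transcripts added before labelling averaged 9.86 in CD95L-T4 polysomal replicate 2, 8.18 and 8.32 in the other CD95L-T4 polysomal arrays and 8.45 to 9.03 in the control polysomal arrays. That array also had the lowest weight in limma's array weighting, 0.31, where the others lay between 0.63 and 2.02. Where leaving it out moves a named gene's interaction or a list's count at a small p by over 1.5 times, the value without it is given as well, written as without replicate 2. The list medians without it are in the plot of list medians. Of 13 defining neural stem cell markers, 10 lay above the 50th percentile, led by Fabp7, Vim, Sox2 and Nes, whereas Prom1 lay at the 14.1st. Of the defining markers of the oligodendrocyte lineage 3 of 7 passed the 50th percentile, in a range from the 3.73rd to the 99.3rd (Olig1). Of those of astrocytes 2 of 5 passed it, from the 13.3rd to the 92.9th (Gja1), and of those of neurons 2 of 6. Of the defining markers of microglia, endothelium, fibroblasts and ependyma 0 of 17 passed it. In bulk RNA such as this, fewer cells of a type and less RNA per cell cannot be told apart.

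No gene passed the test. limma called 0 of 22626 probe sets (0.0%) at an adjusted p under 0.05, and the lowest adjusted p was 0.897. At an unadjusted p under 0.05 stood 992 probe sets (4.38%), 363 higher (1.6%) and 629 lower (2.78%). Counted by gene, these were 495 of 12393 (3.99%), of which 165 (1.33%) were higher and 330 (2.66%) lower. The share of higher ones among the 992 was 36.6%, but 47.0% after quantile normalisation over all arrays and 46.2% after quantile normalisation within each fraction. The genes' median was -0.01, and from the 5th to the 95th percentile they ran from -0.27 to 0.24. The array values of most genes were bounded closely. The 95% interval of the interaction lay within a 1.5-fold change for 87.5% of genes and within 2-fold for 99.5%. In dim genes such an interval bounds the array value rather than the RNA. Array medians were nearly equal in both fractions, so a shift of all mRNAs together would not appear in the interaction. Because no gene passed, everything named below is given as a value, not as a change. limma's adjusted p was 0.897 for every named gene at an unadjusted p under 0.05 and 0.897 to 0.996 for the other named genes.

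Among the 10 genes with the smallest p on the higher side were 3 receptor genes. The 10 were Alk (0.44), Bspry (0.45), Col5a2 (0.51), Il13ra2 (0.54), Prkcq (0.44), Igf1r (0.58), Lmnb1 (1.30), Cdh11 (0.47), Slc7a12 (0.48) and Reep2 (0.42). Alk and Igf1r encode receptor tyrosine kinases, Il13ra2 a decoy receptor of interleukin 13, Prkcq the kinase PKC theta, Cdh11 a cadherin and Reep2 a protein that shapes the endoplasmic reticulum (ER). The levels of Cdh11 and Slc7a12 lay at the 3.3rd and 3.38th percentile, where an array value says little about RNA, and Alk and Il13ra2 at the 19.9th and 24.0th.

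Col5a2, which encodes a chain of the fibrillar collagen type V, was one of the brighter of these. Its total level was 9.04, 8.96, 8.99 and 9.13 in control and 8.93, 9.06, 8.96 and 9.07 in CD95L-T4 cultures. Its polysomal level was 6.72, 6.86, 6.41 and 6.70 in control and 7.32, 7.16 and 6.99 in CD95L-T4 cultures. The total groups overlapped, and all 3 treated polysomal arrays lay above all 4 controls. The interaction of Col5a2 was 0.51 ± 0.14 (SE; limma's unadjusted p = 0.00178), and 0.38 with the polysomal arrays scaled to equal separation from total RNA. Its other probe set stood at 0.13.

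Igf1r encodes the main receptor of IGF1. Across total RNA it read 6.30, 6.87, 6.68 and 6.40 in control and 6.42, 6.44, 6.20 and 6.38 in CD95L-T4 cultures. The polysomal level of Igf1r was 5.87, 5.72, 5.87 and 5.68 in control and 5.94, 6.21 and 6.34 in CD95L-T4 cultures. Treated polysomal arrays were the higher ones without overlap, the first by little. The interaction was 0.58 ± 0.17, but a second, dimmer probe set of the gene had the opposite sign, at -0.19 ± 0.24.

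Lmnb1, which encodes the nuclear lamina protein lamin B1, had one of the 3 interactions beyond 2-fold. Its total level was 8.94, 9.93, 9.57 and 9.33 in control and 9.68, 8.74, 8.93 and 9.35 in CD95L-T4 cultures. Its polysomal level was 8.90, 8.44, 8.56 and 7.85 in control and 9.0, 9.38 and 10.02 in CD95L-T4 cultures. Replicates of a group lay up to about a log2 unit apart in total RNA, and the treated polysomal arrays were above the controls. The interaction of Lmnb1 was 1.30 ± 0.38 (95% interval 0.49 to 2.1), and its second probe set stood at 1.27 ± 0.32.

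Ddit4, the stress-induced inhibitor of mTORC1 also called REDD1, had the highest interaction of all genes in the values as deposited. In total RNA it read 7.17, 8.78, 8.37 and 8.11 in control and 8.51, 7.02, 7.05 and 7.12 in CD95L-T4 cultures. Its polysomal level was 9.49, 8.70, 8.97 and 8.0 in control and 8.86, 9.86 and 9.88 in CD95L-T4 cultures. Both fractions overlapped between treatments, and 1 array of each total group stood away from the others. The interaction was 1.43 ± 0.56 (95% interval 0.24 to 2.61; limma's unadjusted p = 0.0216). The third gene beyond 2-fold, named after its values were seen, was Sh3d19, an adaptor with SH3 domains, at 1.07 ± 0.44. Its total level ran from 8.60 to 9.63 in control and from 7.65 to 9.60 in CD95L-T4 cultures. Its 3 other probe sets had the same sign. Lmnb1, Ddit4 and Sh3d19 ordered the arrays alike. In total RNA, control replicate 2 was highest and 1 lowest, and CD95L-T4 replicate 1 highest and 2 lowest. In polysomal RNA, control replicate 4 was lowest, and the treated arrays rose from replicate 1 to 3. The 3 large values are therefore not independent of each other, and the cause of the shared order was not tested.

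**Figure D1:**
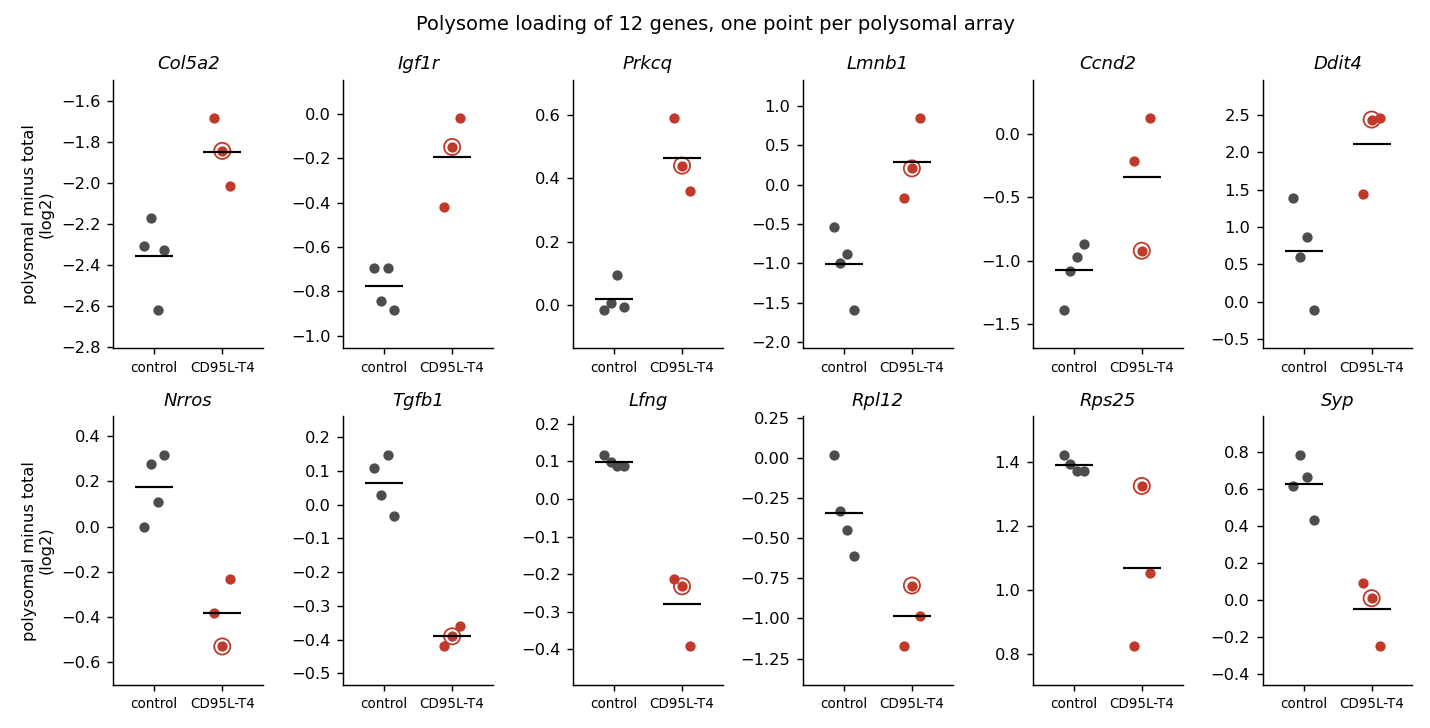
Loading of 12 genes, as the value of each polysomal array minus the mean of the total arrays of its treatment, in log2, with a vertical scale of its own for each gene. Grey points are the 4 control arrays, red points the 3 CD95L-T4 arrays with replicate 2 ringed, and bars are means; in 11 genes the groups are apart, and in Ccnd2 the ringed array lies among the controls. Genes were picked for small p or large size, so the gaps are a description.

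On the lower side, the genes of a latent cytokine and of a protein that tethers it were both among the 10 with the smallest p. The 10 were Nrros (-0.56), 2310010J17Rik (-0.71), Slc47a1 (-0.55), Arhgap39 (-0.55), Tgfb1 (-0.45), Cd52 (-0.57), Lfng (-0.38), Rpl12 (-0.64), Lin7b (-0.43) and Atoh1 (-0.52). Nrros encodes a membrane protein known to hold latent TGF-beta 1, the product of Tgfb1, at the surface of microglia. Slc47a1 encodes an exporter of organic cations, Cd52 a leukocyte surface glycoprotein, Lin7b a scaffold protein and Atoh1 a proneural transcription factor. Slc47a1 (4.95th percentile) and Cd52 (11th) were dim, and 1 of 3 other probe sets of Lin7b stood at 0.02. In all 20 genes of the higher and lower sets the loadings of the 3 treated arrays did not overlap those of the 4 controls, which held for 437 genes (3.53%) on the higher and 761 (6.14%) on the lower side. The 20 were chosen by this contrast, so nothing is read from that.

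The total level of Tgfb1 was 4.77, 4.80, 4.70 and 4.82 in control and 5.29, 4.99, 5.30 and 5.22 in CD95L-T4 cultures. Its polysomal level was 4.88, 4.80, 4.92 and 4.74 in control and 4.78, 4.81 and 4.84 in CD95L-T4 cultures. The total groups did not overlap, with the treated arrays high, and the polysomal groups did. The interaction of Tgfb1 was -0.45 ± 0.11, and from -0.52 to -0.39 over all other settings.

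Nrros had a total level of 4.70, 4.79, 4.70 and 4.66 in control and 5.01, 4.91, 5.05 and 5.07 in CD95L-T4 cultures. The polysomal level of Nrros was 4.71, 4.99, 4.82 and 5.03 in control and 4.63, 4.48 and 4.78 in CD95L-T4 cultures. In total RNA the treated arrays were the higher ones, and in polysomal RNA 1 treated array lay among the controls. The interaction of -0.56 ± 0.12 had the smallest p of all named genes (limma's unadjusted p = 0.000323). Both genes lay below the 30th percentile, Tgfb1 at the 29.0th and Nrros at the 27.9th.

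Lfng, which encodes the Notch-modifying glycosyltransferase lunatic fringe, was brighter, at the 68.8th percentile. Its total level was 8.28, 8.47, 8.42 and 8.40 in control and 8.57, 8.55, 8.47 and 8.58 in CD95L-T4 cultures. Its polysomal level was 8.51, 8.49, 8.48 and 8.48 in control and 8.33, 8.31 and 8.15 in CD95L-T4 cultures. The control polysomal arrays agreed within 0.03, and all treated ones lay below them. The interaction was -0.38 ± 0.10, whereas the dimmer second probe set stood at 0.28 ± 0.33 and the mean of both at -0.05.

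TOP mRNAs were examined first among the gene groups, as the group most directly tied to mTOR. Their starts are shown because the tract is what defines them. The lines below give 10 bases before and 20 from the annotated start of 6 of these genes, from RefSeq on GRCm38.p6, with a tract in capitals where one was found.
Rpl12, chr2:32961702-32961731, plus strand: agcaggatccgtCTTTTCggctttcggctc
Rps27, chr3:90213629-90213658, minus strand: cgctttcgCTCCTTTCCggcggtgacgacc
Rps6, chr4:86857348-86857377, minus strand: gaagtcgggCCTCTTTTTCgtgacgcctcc
Eef1a1, chr9:78481705-78481734, minus strand: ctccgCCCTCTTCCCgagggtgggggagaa
Rps25, chr9:44407704-44407733, plus strand: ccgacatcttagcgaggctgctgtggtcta
Eef2, chr10:81176621-81176650, plus strand: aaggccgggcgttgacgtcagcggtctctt
A tract was counted as a C followed by at least 4 C or T on the transcript's strand, beginning within 5 bases of the start. It was found in 19 of 38 ribosomal protein genes and 8 of 16 other TOP genes, and in 2314 of all 9882 genes with a listed start (23.4%). For Rps25 and Eef2 these letters were not in the window. The 2314 genes had a median interaction of -0.01, as did the 7568 others. At an unadjusted p under 0.05, 27 of the 2314 stood higher and 58 lower, and 101 and 200 of the 7568. Of all genes 1.33% stood higher and 2.66% lower.

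The cytosolic ribosomal proteins as a group sat at the median of all genes. Of 79 listed, 43 were measured. Of these 19 lay above 0, against 45.9% of all genes, and the median was -0.01, where 5 of 26 other settings gave a value above 0. Their median level was 13.64, where the highest value on an array was 14.37 to 14.47. Whether array values so near the top still follow RNA in proportion was not tested. At an unadjusted p under 0.05, 0 were higher and 2 lower, Rpl12 and Rps25, and without replicate 2 the counts were 1 and 5. Of all genes 1.33% were higher and 2.66% lower with all arrays, and 7.76% and 8.34% without replicate 2. Leaving it out thus raised the counts over all genes, and every list count here and below is to be read beside these shares. The shares without replicate 2 varied with level. Of the 3098 genes with a level from 9.171 to 14.27, 516 were higher and 388 lower. Of the 3099 with a level from 2.51 to 4.75, 45 were higher and 152 lower. Rpl12, a protein of the large subunit, stood at -0.64 ± 0.17. Its total level was 9.18, 9.05, 8.97 and 9.0 in control and 9.19, 9.14, 9.07 and 9.30 in CD95L-T4 cultures. In polysomal RNA the level was 9.07, 8.72, 8.60 and 8.44 in control and 8.0, 8.38 and 8.19 in CD95L-T4 cultures. The total groups overlapped, and every treated polysomal array lay below the controls.

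Rps25, of the small subunit, showed the difference in 2 of 3 treated arrays. In the polysomal fraction it read 11.86, 11.83, 11.81 and 11.81 in control and 11.33, 11.83 and 11.56 in CD95L-T4 cultures, and its total level was 10.42 to 10.45 in control and 10.40 to 10.62 in CD95L-T4 cultures. Replicate 2 of the treated arrays equalled the controls. The interaction of Rps25 was -0.32 ± 0.13, and -0.45 without that array. Rps27 stood at -0.26 ± 0.13 and Rps6, the substrate of the S6 kinases, at 0.07 ± 0.11 (95% interval -0.15 to 0.30) with its brightest probe set and at -0.07 as the mean of its probe sets.

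Other TOP mRNAs had 14 of 22 members above 0 and a median of 0.04, with 0 at an unadjusted p under 0.05, or 5 higher and 1 lower without replicate 2. Npm1, which encodes nucleophosmin, stood at 0.20 ± 0.11, Eef1d, of the elongation factor 1 complex, at 0.25 ± 0.18 and Vim, the intermediate filament vimentin, at 0.16 ± 0.11. Without replicate 2 Npm1 stood at 0.31, Eef1d at 0.41 and Vim at 0.26. The elongation factor genes Eef1a1 and Eef2 had narrow intervals at very bright mean levels, 14.08 and 12.66. Whether so bright an array value still follows RNA in proportion was not tested. Eef1a1 stood at 0.05 ± 0.08 (95% interval -0.12 to 0.23). Eef2 stood at -0.00 ± 0.08 (95% interval -0.18 to 0.18), or -0.01 without replicate 2, with a sign that turned under several settings. Pabpc1, the poly-A binding protein gene, stood at -0.02 ± 0.10, and at 0.01 with array weights or without replicate 2.

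Genes that run or restrain cap-dependent translation lay mostly above 0, and how many stood at a small p depended on 1 array, as given after them. Initiation, elongation and release factors had 27 of 36 members above 0, a median of 0.07 and 0 members at an unadjusted p under 0.05. Eif2b1, of the eIF2 exchange factor, stood at 0.20 ± 0.12, Eif3i at 0.18 ± 0.11 and Eif1b at -0.22 ± 0.10. The cap-binding factor Eif4e stood at -0.11 ± 0.09. PI3K, Akt and mTOR kinases and adaptors had 17 of 24 above 0, a median of 0.10 and 0 at an unadjusted p under 0.05. Pdpk1, the kinase PDK1, stood at 0.21 ± 0.11, Rraga, the mTORC1-recruiting GTPase RagA, at 0.45 ± 0.30 and Yes1, a Src-family kinase, at 0.23 ± 0.18. Without replicate 2 Rraga stood at 0.77. Akt1 stood at 0.14 ± 0.14, or 0.22 without replicate 2, and Mtor at 0.08 ± 0.14, or -0.06 as the mean of its 2 probe sets.

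Brakes on mTORC1 and cap-dependent translation had 14 of 17 above 0 and a median of 0.11, with Ddit4 the single member at an unadjusted p under 0.05. Pdcd4, an inhibitor of the helicase eIF4A, stood at 0.30 ± 0.19, and at 0.53 without replicate 2 (limma's unadjusted p = 0.00146). Eif4ebp1, the repressor of eIF4E, stood at -0.19 ± 0.13. mRNA-binding regulators of translation had 30 of 38 above 0 and a median of 0.11, the highest of the 27 lists in the values as deposited. At equal separation it was 0.09, below the brakes and the PI3K, Akt and mTOR group, both at 0.11. Stau2, which encodes a double-stranded RNA-binding protein of neuronal RNA granules, was the single one at an unadjusted p under 0.05, at 0.59 ± 0.19. Its loading was 0.30, 0.29, 0.10 and -0.14 in the control arrays and 0.82, 0.56 and 0.81 in the treated ones, with no overlap. The other probe sets of Stau2 stood lower, at 0.19 ± 0.17 (level 7.52, against 7.59) and 0.23 ± 0.13. Its lowest value over all settings was 0.34. Msi2, the stem cell RNA-binding protein Musashi 2, stood at 0.65 ± 0.35, and the AU-rich element binder Elavl1 at 0.35 ± 0.17, or 0.55 without replicate 2.

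The medians of these groups rested on the treated arrays unequally. Computed with each CD95L-T4 polysomal array in turn as the only treated one, the median of the mRNA-binding regulators was 0.13, -0.11 and 0.26, that of the factors 0.13, -0.04 and 0.11, and that of the PI3K, Akt and mTOR group 0.13, -0.01 and 0.20. Replicate 2 gave the low value each time. Without it the medians were 0.22, 0.15 and 0.14, against -0.02 for all genes. The counts at an unadjusted p under 0.05 without it were 11 higher and 2 lower of the 38 mRNA-binding regulators, 7 and 1 of the 36 factors, 4 and 1 of the 24 in the PI3K, Akt and mTOR group and 3 and 2 of the 17 brakes, beside 7.76% higher and 8.34% lower of all genes. At an adjusted p under 0.05 stood 0 of them. Of the 3098 genes with a level from 9.171 to 14.27, 516 were higher and 388 lower at an unadjusted p under 0.05 without replicate 2. The mRNA-binding regulators and the factors had median levels of 9.81 and 10.93.

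**Figure D2:**
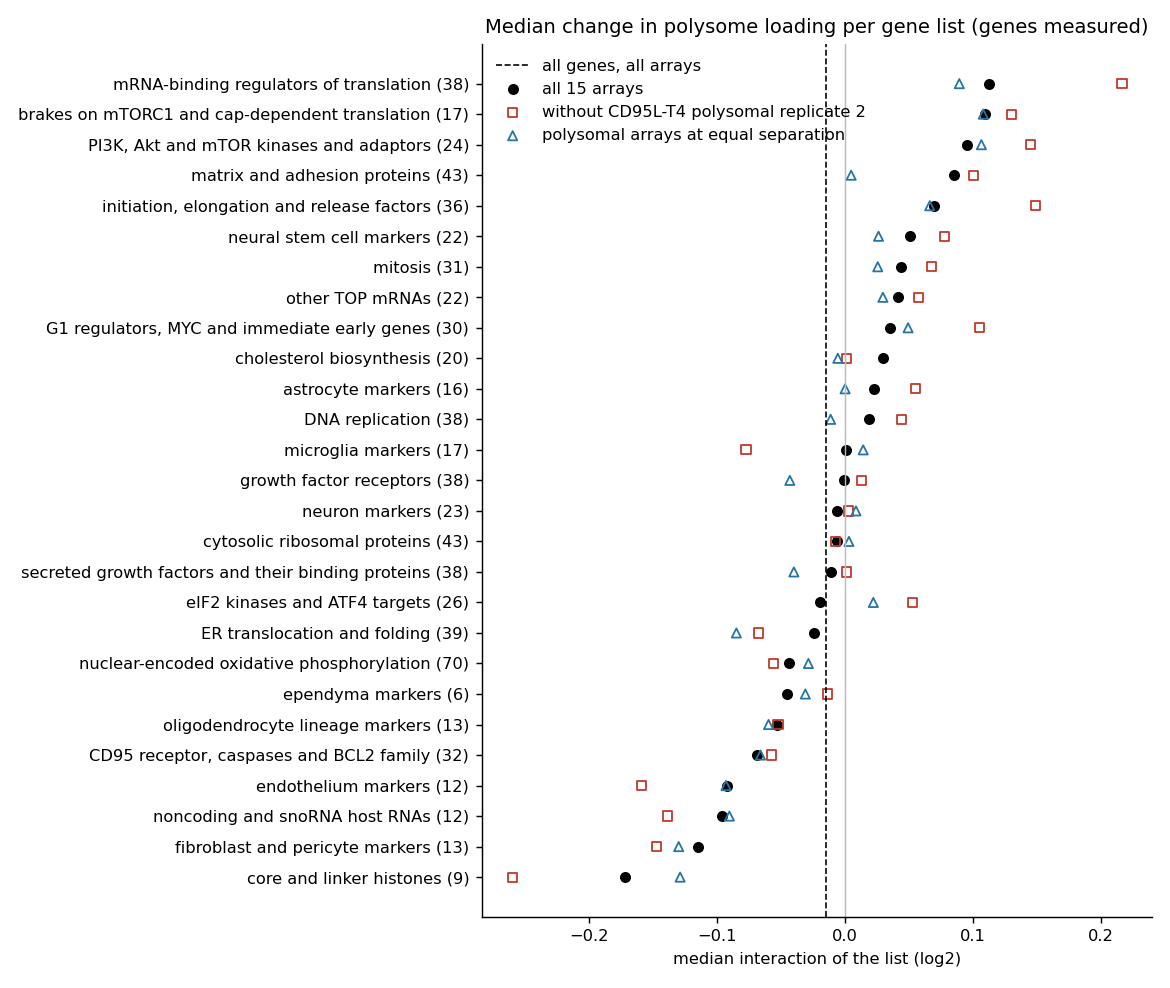
Median interaction of each of the 27 gene lists, in log2, with the number of genes measured in brackets. Black circles use all 15 arrays, red squares leave out CD95L-T4 polysomal replicate 2, blue triangles scale the polysomal arrays to equal separation from total RNA, and the dashed line is the median of all genes; most lists lie within 0.1 of 0, and leaving out the replicate moves the histones to -0.26 and the mRNA-binding regulators to 0.22.

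The eIF2 kinases and ATF4 targets, genes of the integrated stress response, centred near 0: 12 of 26 lay above it, the median was -0.02 (above 0 in 9 of 26 other settings) and 0 stood at an unadjusted p under 0.05, or 6 higher and 3 lower without replicate 2. Trib3, a pseudokinase induced by ATF4, stood at 0.25 ± 0.12 with a second probe set at -0.02. Xpot, the tRNA exporter exportin-t, stood at 0.26 ± 0.13. Ddit3 (CHOP) stood at -0.20 ± 0.12 and Ppp1r15a (GADD34), which reverses eIF2 phosphorylation, at -0.08 ± 0.11. Without replicate 2 the values were 0.41 for Xpot, -0.33 for Ddit3 and -0.18 for Ppp1r15a. Atf4 itself stood at -0.14 ± 0.10, or -0.22 without replicate 2, but a second bright probe set of Atf4 stood at 0.19 ± 0.15 and the mean of its probe sets at -0.03. Atf4, Ddit3 and Ppp1r15a were loaded well above 0 in control cultures, at 0.78, 1.59 and 1.01.

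Genes of secreted and membrane proteins, whose mRNAs are translated at the ER, were described as 4 lists. Matrix and adhesion proteins had 29 of 43 above 0 and a median of 0.09, but 0.00 with the polysomal arrays scaled to equal separation. Their loading in control cultures was low, with a median of -1.39. At an unadjusted p under 0.05 stood 2 higher and 0 lower (7 and 0 without replicate 2): Col5a2, given above, and Sparcl1, the secreted matricellular protein hevin, at 0.35 ± 0.12. The polysomal level of Sparcl1 was 10.30, 10.40, 10.16 and 10.08 in control and 10.62, 10.35 and 10.43 in CD95L-T4 cultures, where 1 treated array lay between the controls. In the total fraction it read 12.19 to 12.28 in control and 12.02 to 12.19 in CD95L-T4 cultures. Fn1, which encodes fibronectin, stood at 0.28 ± 0.13.

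ER translocation and folding genes had 16 of 39 above 0 and a median of -0.02, with 1 lower at an unadjusted p under 0.05 and 1 higher and 4 lower without replicate 2. The single one with all arrays was Herpud1, of ER-associated degradation, at -0.30 ± 0.14. The translocon subunit gene Ssr4 stood at -0.21 ± 0.11 and the chaperone gene Hyou1 at 0.26 ± 0.13, with another probe set of Hyou1 at -0.15 ± 0.18. Secreted growth factors and their binding proteins were spread, with a median of -0.01 over 38 and 17 above 0. At an unadjusted p under 0.05 stood 4 lower, Tgfb1, Dkk3 (-0.45 ± 0.12), Scg2 (-0.47 ± 0.13) and Apoe (-0.28 ± 0.12). The 2 higher ones, Igfbp5 (0.38 ± 0.13) and Grn (0.39 ± 0.18), were named after their values were seen. A second probe set of Igfbp5 stood at 0.01 ± 0.17, and the mean of both at 0.20. Without replicate 2 the list had 5 higher and 4 lower. Dkk3 encodes a secreted Dickkopf protein, Scg2 secretogranin II, Igfbp5 a binding protein of insulin-like growth factors and Grn progranulin. Vegfa stood at -0.16 ± 0.14, at -0.06 without replicate 2 and at 0.03 with a second probe set. Growth factor receptors had 19 of 38 above 0, a median of 0.00 and 2 members at an unadjusted p under 0.05, Alk and Igf1r, both higher (5 higher and 2 lower without replicate 2). Fgfr4, a receptor of fibroblast growth factors, was next by p at -0.26 ± 0.15, with 2 of its 4 other probe sets above 0.

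Of the cell cycle lists, 1 member stood at an unadjusted p under 0.05, Ccnd2, which encodes the G1 cyclin D2. Total RNA gave 11.72, 12.20, 12.13 and 12.15 in control and 12.14, 11.58, 12.01 and 11.68 in CD95L-T4 cultures. On polysomes the values were 10.66, 10.97, 11.08 and 11.18 in control and 11.64, 10.93 and 11.98 in CD95L-T4 cultures. Treated replicates 1 and 3 lay above all controls, and replicate 2 lay among them. The interaction of Ccnd2 was 0.74 ± 0.28, and 1.03 without that array, and all 6 of its other probe sets had the same sign. It was the single member of 30 G1 regulators, MYC and immediate early genes at an unadjusted p under 0.05, and their median was 0.03, with a range from -0.25 to 0.85. Without replicate 2 the counts were 5 higher and 2 lower. Ccnd1 stood at 0.21 ± 0.13, or 0.33 without replicate 2, Jun at 0.43 ± 0.25 with a second probe set at -0.03, Ier2 at -0.24 ± 0.14 and Myc at -0.01 ± 0.19, or 0.09 with array weights and 0.21 without replicate 2. The polyamine enzyme gene Odc1 stood at 0.04 ± 0.10, or 0.10 without replicate 2, and its other probe sets at 0.32 ± 0.12 and -0.06 ± 0.11.

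Mitosis genes had 18 of 31 above 0 and a median of 0.04, and DNA replication genes 21 of 38 and 0.02, with 0 of either at an unadjusted p under 0.05. Mitosis genes ran from -0.19 to 0.85 and replication genes from -0.19 to 0.28. Without replicate 2, 4 mitosis genes were higher and 0 lower, and 4 replication genes higher and 2 lower. Anln, which encodes anillin of the cleavage furrow, stood at 0.19 ± 0.10, Cdk1 at 0.24 ± 0.13 and the proliferation marker Mki67 at 0.11 ± 0.16. Without replicate 2 Cdk1 stood at 0.38 and Mki67 at 0.26. Bub1, of the spindle checkpoint, stood at -0.19 ± 0.12 with a second probe set at 0.13. Prim2 and Pola1, of the primase complex, stood at 0.24 ± 0.12 and 0.28 ± 0.16, and Cdc45, of the replicative helicase, at 0.20 ± 0.11. Cholesterol biosynthesis genes had 11 of 20 above 0 and a median of 0.03, with 0 at an unadjusted p under 0.05, or 2 higher and 3 lower without replicate 2. Idi1 stood at 0.18 ± 0.11 (0.28 without replicate 2) and Fdps at 0.26 ± 0.17 (a dim second probe set at -0.03), both enzymes of isoprenoid synthesis, and the regulator Srebf2 at -0.16 ± 0.10.

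Genes of the CD95 pathway itself lay slightly below 0. The CD95 receptor, caspases and BCL2 family had 12 of 32 above 0 and a median of -0.07, and no other setting turned its sign. At an unadjusted p under 0.05, 0 were higher and 2 lower, or 1 and 4 without replicate 2. Bak1, which encodes the pore-forming protein BAK, stood at -0.38 ± 0.13. Polysomal RNA gave 8.36, 8.41, 8.56 and 8.64 in control and 8.16, 8.44 and 8.33 in CD95L-T4 cultures. The total arrays read 7.2, 7.18, 7.09 and 7.37 in control and 7.46, 7.39, 7.55 and 7.25 in CD95L-T4 cultures, so both fractions overlapped. Bad, which encodes a BH3-only protein held in check by Akt, stood at -0.36 ± 0.15 and the executioner Casp6 at 0.29 ± 0.14. Fas stood at -0.07 ± 0.17 and Casp8, the initiator caspase of the receptor, at -0.20 ± 0.14. Both were dim, at the 23.7th and 17.3rd percentile.

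Core and linker histones had 1 of 9 measured genes above 0, of 41 listed, and a median of -0.17, or -0.26 without replicate 2. It was the lowest of the lists in the values as deposited, whereas at equal separation it was -0.13, as was that of fibroblast and pericyte markers. Leaving out single arrays moved it between -0.26 and -0.06. H3c4, a replication-dependent histone H3 gene, was the single one at an unadjusted p under 0.05, at -0.77 ± 0.23, and 4 were lower without replicate 2. Its total values were 6.62, 6.65, 6.04 and 6.57 in control and 6.63, 6.89, 6.64 and 6.86 in CD95L-T4 cultures. The polysomal arrays read 7.14, 6.67, 6.84 and 6.83 in control and 5.94, 6.68 and 6.53 in CD95L-T4 cultures. Treated replicate 2 lay at the lower edge of the controls, and the other 2 below them. Histone genes are near-identical copies, so a probe set may read several. H3c7 stood at -0.57 ± 0.28, and H2az2, a variant gene of its own, at -0.17 ± 0.10, or -0.26 without replicate 2.

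Nuclear-encoded oxidative phosphorylation genes had 21 of 70 above 0 and a median of -0.04, below 0 under every other setting. With all arrays 0 stood at an unadjusted p under 0.05. Without replicate 2, 6 were higher and 19 lower, beside 7.76% and 8.34% of all genes. The list was bright, with a median level of 12.03. Of the 3098 genes with a level from 9.171 to 14.27, 516 were higher and 388 lower without replicate 2. Of 780 such genes spanning at most 8.12 kb, 82 were higher and 195 lower. Whether the listed genes differ from bright genes of like span was not tested. Cox8a, of complex IV, stood at -0.24 ± 0.12, or -0.36 without replicate 2, and Uqcr10, of complex III, at -0.22 ± 0.12. Uqcrc2, a core subunit of complex III, stood at 0.42 ± 0.22. Noncoding and snoRNA host RNAs had 5 of 12 above 0 and a median of -0.10, with 0 at an unadjusted p under 0.05, or 0 higher and 3 lower without replicate 2. Snhg1 stood at -0.24 ± 0.12, Neat1 at -0.27 ± 0.16 and Meg3 at -0.20 ± 0.12, with 3 of 4 other probe sets of Meg3 on the other side of 0. By annotation, 122 long noncoding RNA genes had a median of -0.08, and 12155 protein-coding genes a median of -0.01. Their median levels differed, at 4.98 and 7.41. Over all genes, those with a level from 4.75 to 7.36 had a median of -0.045. At an unadjusted p under 0.05 stood 0 higher and 7 lower of the noncoding genes. Of the protein-coding genes 164 were higher and 319 lower, and of all genes 1.33% were higher and 2.66% lower.

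Genes of neural stem cell identity had 13 of 22 above 0 and a median of 0.05. Lfng was the single one at an unadjusted p under 0.05, and without replicate 2 there were 4 higher and 3 lower. Sox9 stood at 0.31 ± 0.16, Sox2 at 0.30 ± 0.18 (95% interval -0.07 to 0.68), Nes at 0.06 ± 0.20 and Hes5, a Notch target, at -0.27 ± 0.15. Without replicate 2 Sox2 stood at 0.50, Nes at 0.22 and Hes5 at -0.42. Of the lineage genes, Olig2 stood at 0.13 ± 0.13, or 0.25 without replicate 2, Olig1 at 0.14 ± 0.10 and Tubb3 at 0.08 ± 0.17. Gfap and Dcx, dim markers of astrocytes and young neurons, stood at -0.34 ± 0.22 and -0.20 ± 0.20. Gfap stood at -0.10 without replicate 2 and at 0.11 with its second probe set, and 2 of 3 other probe sets of Dcx lay above 0.

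Markers of differentiated cell types centred near 0 as lists. Neuron markers had a median of -0.01 over 23, with Syp, the synaptic vesicle protein synaptophysin, the single one at an unadjusted p under 0.05. Its polysomal values were 5.88, 6.05, 5.93 and 5.70 in control and 5.55, 5.47 and 5.21 in CD95L-T4 cultures, without overlap, and its total level 5.02 to 5.44 and 5.11 to 5.69. The interaction of Syp was -0.67 ± 0.18. Nefh (-0.15) and Ncam1 (0.10) were next by p, with 3 of 5 other probe sets of Ncam1 below 0. Astrocyte markers had a median of 0.02 over 16, with 2 lower at an unadjusted p under 0.05, Ndrg2 (-0.26 ± 0.11) and Apoe, or 3 higher and 1 lower without replicate 2. Ndrg2 and Apoe were dim, at the 24.2nd and 29.8th percentile. Oligodendrocyte lineage markers had a median of -0.05 over 13, with Cnp at 0.40 ± 0.17, another probe set of it at -0.01, and the dim Ugt8a at -0.23, with its other probe set at 0.19. Cnp was the single one at an unadjusted p under 0.05, and without replicate 2 there were 3, all higher.

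Among other cell types, microglia markers had a median of 0.00 over 17, of the opposite sign in 17 of 25 other settings. Without replicate 2 it was -0.08, with 4 above 0 rather than 9. Of the microglia markers, Cd52 and C1qa (-0.34 ± 0.15) stood lower at an unadjusted p under 0.05, and 1 gene without replicate 2. Their 6 defining markers lay between the 5.31st and 35.6th percentile, and their mean level per array ran from 4.05 to 4.26 in control polysomal and from 4.07 to 4.18 in CD95L-T4 polysomal arrays. Tmem119 stood at -0.34 ± 0.20. Endothelium markers had 2 of 12 above 0 and a median of -0.09, led by Tie1 (-0.27), Cldn5 (-0.19) and Esam (-0.19). Fibroblast and pericyte markers had 3 of 13 above 0 and a median of -0.12, with Rgs5 at -0.26, Col3a1 at -0.22 and Acta2 at 0.23. Of these, 2 of 3 other probe sets of Rgs5 and the 1 other of Acta2 had the opposite sign, and Col3a1 stood at -0.15 without replicate 2. Ependyma markers had 2 of 6 above 0, with Dnah5 at -0.21, Rsph1 at -0.15 (-0.07 without replicate 2) and Foxj1 at 0.23 (0.37), and 1 higher at an unadjusted p under 0.05 without replicate 2 where none was with all arrays. The defining markers of these 4 cell types all lay below the 50th percentile, and the part of such cells in the values of Tgfb1, Nrros and other dim genes was not tested.

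How far the result rested on 1 array was examined by leaving out each in turn. Without CD95L-T4 polysomal replicate 2, 2 of 22626 probe sets were called (0.00884%) and 3540 (15.6%) stood at an unadjusted p under 0.05, 1800 of them higher (7.96%) and 1740 lower (7.69%). That fit compares 2 treated polysomal arrays with 4 controls. Counted by gene it gave 1996 (16.1%), with 962 higher (7.76%) and 1034 lower (8.34%). Both called probe sets were lower. The first, 1431947_at, carries no gene name; its polysomal level was 5.98, 6.09, 5.89 and 5.83 in control and 5.33, 5.91 and 4.89 in CD95L-T4 cultures, and its interaction -1.21 ± 0.16 (limma's adjusted p = 0.0353). The second was a probe set of Arhgap31. In polysomal RNA the level was 6.11, 5.94, 5.96 and 6.11 in control and 5.35, 6.45 and 5.43 in CD95L-T4 cultures. The array left out was the highest of the 7, and the other 2 treated arrays the lowest. The interaction of Arhgap31 was -0.83 ± 0.12 without that array (limma's adjusted p = 0.0429) and -0.47 ± 0.25 with it. Over all other arrays left out in turn, 0 probe sets were called and between 785 and 1495 stood at an unadjusted p under 0.05.

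**Figure D3:**
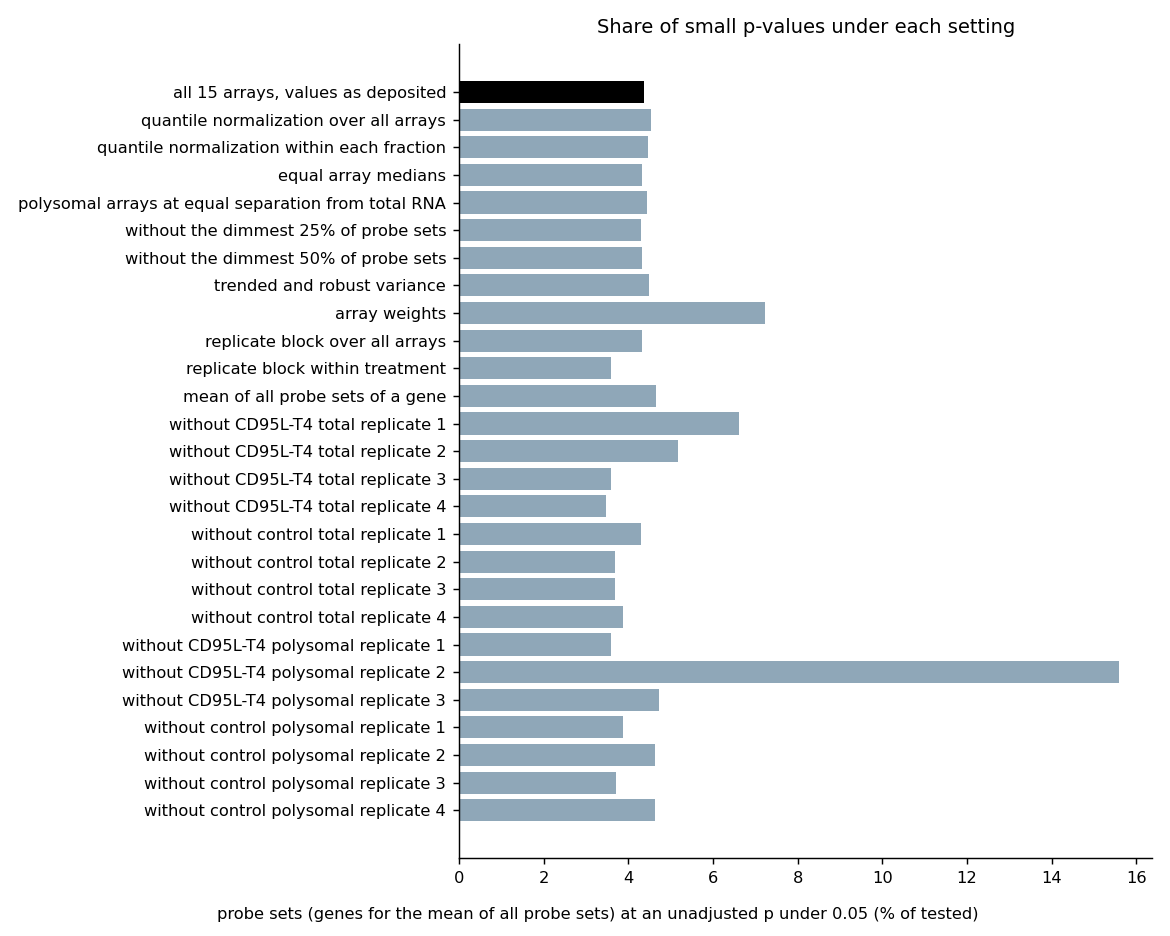
Share of tested probe sets at an unadjusted p under 0.05 (in percent) under each setting; the black bar is the fit to all arrays as deposited, at 4.38%. Leaving out CD95L-T4 polysomal replicate 2 gives 15.6%, array weights 7.23% and leaving out CD95L-T4 total replicate 1 6.61%.

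Agreement between probe sets of a gene was described as well. They were read on the same arrays, so they share any deviation of an array or culture. Their agreement cannot tell such a deviation from an effect of CD95L-T4. For 4956 genes with more than 1 probe set, the 2 brightest had the same sign in 64.2%, with a Pearson coefficient of 0.369 across genes, which are not independent. Where the second probe set was in the brighter 50% of all, the share was 73.0% of 2523 genes. Both probe sets stood at an unadjusted p under 0.05 in 13 genes, 12 of them with the same sign and Notch4 the exception (-0.53 and 0.39). The 13 genes were picked by this contrast, so nothing is read from their signs. Besides Lmnb1 and Ccnd2, and named after their values were seen, these included Grsf1, an RNA-binding protein of mitochondrial RNA granules, at 0.36 and 0.36, Smarce1, of the BAF chromatin remodelling complex, at 0.37 and 0.39, and the motor gene Myo5a at 0.33 and 0.37. Grn stood at 0.39 and 0.42. On the lower side were Urm1, a ubiquitin-like modifier of tRNA, at -0.34 and -0.35 and Chchd5 at -0.36 and -0.46. The polysomal level of Urm1 was 9.95, 9.97, 9.93 and 9.95 in control and 9.62, 10.04 and 9.48 in CD95L-T4 cultures, so treated replicate 2 was the highest of all and the other 2 the lowest. For Grsf1 the loading was -0.00, 0.03, -0.13 and -0.04 in the control and 0.44, 0.20 and 0.34 in the treated arrays, with no overlap.

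Across all genes the interaction varied with the length and level of the gene, a description added after the data were seen. With genes split by genomic span into 4 sets of equal size, from the shortest to the longest, the median was -0.06, -0.03, 0.00 and 0.02, and the share above 0 was 35.5%, 42.0%, 50.1% and 56.1%. At an unadjusted p under 0.05, the shortest set of 3092 held 21 higher and 135 lower genes. The longest set of 3092 held 62 higher and 36 lower, and of all genes 1.33% were higher and 2.66% lower. Among the brightest 25% of genes the medians by span were -0.05, 0.01, 0.05 and 0.06, and among the dimmest -0.04, -0.04, -0.03 and -0.03. The Spearman coefficient of span and interaction over 12367 genes was 0.185, and 0.0959 to 0.263 over the other settings. It was 0.153, -0.03 and 0.242 with each treated polysomal array alone, and replicates of 1 group differed from each other by as much, from -0.19 to 0.19. In CD95L-T4 polysomal replicates 1 and 3 the separation from total RNA was low. The excess of the beta-actin signal at the 3' end over that at the 5' end grows as RNA degrades. Of the polysomal arrays it was lowest in treated replicate 1, at 0.59, and highest in treated replicate 3, at 1.03. It was 0.68 in replicate 2 and between 0.74 and 0.81 in the controls of that fraction. The same difference for Gapdh was -0.05, -0.05 and 0.22 in treated replicates 1 to 3 and -0.04 to 0.09 in those controls. The Spearman coefficient of span and interaction was 0.1245 with the polysomal arrays scaled to equal separation, and 0.0959 without CD95L-T4 polysomal replicate 3. Beyond these values, the part of the separation and of the 3' signal in the pattern was not tested.

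**Figure D4:**
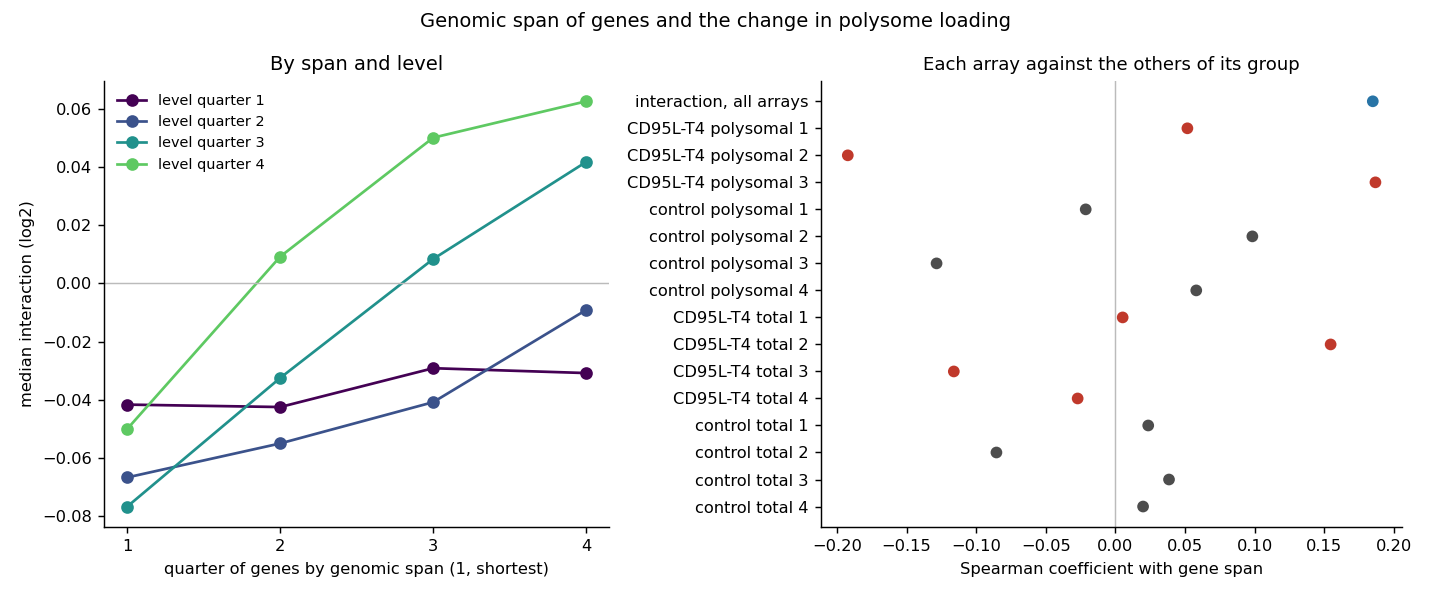
Left, median interaction (log2) in 4 sets of genes by genomic span, with 1 line for each of 4 sets of genes by level; the brightest set runs from -0.05 to 0.06 and the dimmest stays near -0.03. Right, Spearman coefficient with gene span of the interaction (blue) and of each array minus the mean of the others of its group (red, CD95L-T4; grey, control); single arrays reach -0.19 and 0.19, and the interaction stands at 0.185.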

How the data were processed

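The deposited series matrix holds log2 values of Affymetrix mouse arrays, given to 2 decimals. How the authors normalised them is not given in the sources used here, and the scale was read from the values. Of 22690 probe sets, 64 Affymetrix controls were left out. Gene names came from the platform annotation, updated by gene identifier (12369 of 12393 genes matched). In limma 3.58.1 under R 4.3.3, 1 mean per group was fitted over all 15 arrays with empirical Bayes moderation, and the interaction was tested two-sided with Benjamini-Hochberg adjustment over 22626 probe sets and a threshold of 0.05. Errors are limma's standard errors, and precision is limited by how many arrays there are. The steps were tested on simulated data.

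The members, the 27 gene lists and the rules were chosen with earlier results of these data known. Named were the 10 genes with the smallest p in each direction, the 3 members of each list with the smallest p, and 27 genes fixed by name, of which 25 were measured by a probe set of 1 gene; 9 further genes were named after their values were seen. Other probe sets of opposite sign are pointed out. Of 882 list entries, 728 were measured. List medians carry no test. Alternatives were 11 other settings (scaling, dim probe sets, variance, weights, replicate block, mean of probe sets) and leaving out each of the 15 arrays. Protein length was not used here.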

Additional observations from a re-analysis of the deposited data

Results flagged for a closer look

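In groups of 4 arrays, a value was picked out when its gap to the nearest other array exceeded 0.829 of the group's range. This held in 23 of 384 groups (5.99%), and chance gives about 1 in 20. The widest gaps in log2 concerned genes with large interactions. Ddit4 read 8.51 in CD95L-T4 total replicate 1 and 7.02 to 7.12 in the others. Msi2 read 6.55 in CD95L-T4 total replicate 3 and 7.56 to 7.70 in the others. H3c4 read 6.04 in control total replicate 3 against 6.57 to 6.65, H3c7 read 6.04 in control total replicate 4 against 5.51 to 5.6, and Ccnd2 read 11.72 in control total replicate 1 against 12.13 to 12.20.

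In control total replicate 1, Smarce1 read 10.33, Prim2 9.47 and Ncam1 9.33. In control total replicate 2, 2310010J17Rik read 6.63, Yes1 8.45, Neat1 11.05, Apoe 5.05, Rgs5 4.10 and Sox2 11.63. Hyou1 read 9.81 in control total replicate 3, and in replicate 4 Bspry read 4.92 and Bad 8.57. In CD95L-T4 total RNA, Snhg1 read 11.83 and Cnp 10.78 in replicate 1, and Bad 8.85 and Elavl1 10.33 in replicate 3. The 3' minus 5' difference of Gapdh was -0.31 in CD95L-T4 total replicate 1 and -0.24 to -0.23 in the others. In the control polysomal group, the single value picked out was that of Notch4 in replicate 1, at 6.55.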

How the results depend on the processing

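The count of called probe sets was 0 under all 11 other settings and ran from 0 to 2 on leaving out single arrays, with 2 without CD95L-T4 polysomal replicate 2. Probe sets at an unadjusted p under 0.05 numbered 992, and genes at an unadjusted p under 0.05 numbered 495; these counts were 1636 (877 genes) with array weights and 490 (280 genes) without the dimmest 50% of probe sets, which leaves fewer to test. Leaving out single arrays gave 785 to 3540 probe sets and 385 to 1996 genes; without CD95L-T4 total replicate 1 it was 1495. The share of higher ones was 51.4% without the dimmest 50% and 50.8% without CD95L-T4 polysomal replicate 2. A replicate block over all arrays gave 978 and a replicate block within treatment 815, with 0 called by either. Samples of the same number deviated from their group means with correlations of -0.23 to 0.22 over the group pairs, and in 1 of 6 group pairs, control polysomal with CD95L-T4 total, every value was over 0.1 (0.14 to 0.22), so the numbers were not taken to pair the samples.

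Of 124 named genes, 10 changed sign under some setting, all with interactions near 0, and 0 crossed the threshold; the cause was not tested. The interaction of Eef2 was 0.0034 with quantile normalisation over all arrays, 0.00068 with that within each fraction, 0.0015 with array weights and 0.0067 with the replicate block within treatment. Pabpc1 stood at 0.013 with array weights, and Mtor at -0.059 and Rps6 at -0.074 as means of probe sets. Myc stood at 0.018 at equal separation, 0.087 with array weights, 0.019 with the replicate block over all arrays and 0.025 with that within treatment. Leaving out single arrays gave -0.021 to 0.020 for Eef2, -0.17 to 0.21 for Myc, -0.065 to 0.013 for Pabpc1, -0.18 to 0.0025 for Ppp1r15a, -0.06 to 0.22 for Nes, -0.073 to 0.26 for Mki67, -0.039 to 0.20 for Tubb3, -0.18 to 0.047 for Fas and -0.0025 to 0.13 for Mtor. Of the 698 values of the list medians under other settings, 35, in 18 lists, moved by more than the spread between replicates. Lists of markers with no member left without the dimmest 50% of probe sets have no value there.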
